A study of Mus musculus with 16 samples.

Results

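The Zfp genes, the mouse genes named Zfp and a number, encode zinc finger proteins, and they were followed here in ribosome-protected fragments (RPF, the mRNA pieces covered by ribosomes, also called footprints) and in total RNA of mouse embryonic stem cells. The table held 360 such rows among 21977 genes. Members were the 286 rows with a mean of at least 50 normalised reads (reads divided by a size factor per library) over the 8 RPF and over the 8 total RNA libraries. Zfp42 (Rex1) was left out by name as a stem cell marker, and 73 rows fell below the minimum: 27 in RPF only, 1 in total RNA only and 45 in both. A mean of at least 50 in every genotype and both assays was reached by 264 members, while 22 passed through some groups only. Just inside the minimum lay Zfp128, with a smaller mean of 51.8 over the assays, and just outside it Zfp738, with 49.3.

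The cells, of the mouse embryonic stem line RF8, grew on gelatin with LIF, a cytokine that keeps them undifferentiated. Nat1, now called Eif4g2, encodes a translation initiation factor related to eIF4G, and the study set cells that lack it against cells with 1 or both copies. Wild type (WT) was represented by 2 cultures (WTex1, WTex2), set beside 3 Nat1+/- clones, A7, B4 and C1, and 3 Nat1-/- clones, B12, B2 and C3, each with an RPF and a total RNA library. Since the targeted cultures were clones and the WT replicates cultures of the same line, the WT spread holds no clonal difference, and p-values measure the spread between these cultures only.

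Most Zfp proteins carry rows of C2H2 zinc fingers that read DNA, and many begin with a KRAB domain. The KRAB domain recruits Trim28, which brings Setdb1, the heterochromatin proteins and DNA methyltransferases, so that the bound DNA is packed into H3K9-methylated chromatin. In embryonic stem cells this silences endogenous retroviruses and keeps the methylation of imprinted regions through the wave of demethylation in the early embryo. The name Zfp also covers unrelated zinc finger proteins that act on RNA, ribosomes or signalling. KRAB genes lie in tandem arrays of similar copies, and the sources used here do not say how reads that match several copies were counted, so values of close neighbours are less certain than those of single genes.

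RPF libraries held between 17.5 M and 23.8 M reads and total RNA libraries between 13.2 M and 42.6 M. The 3 deepest total RNA libraries were WTex1, WTex2 and B12, so that in Nat1+/- against WT total RNA, depth and genotype cannot be told apart. Eif4g2 footprints were 17666 and 13862 (WT), 10261, 7608 and 7275 (Nat1+/-) and 1089, 1114 and 922 (Nat1-/-), cultures in the order named above here and below. All 12 stem cell markers had a mean of at least 10 in each genotype, with an RPF sum of 100910 to 118009 (WT), 119959 to 142851 (Nat1+/-) and 194620 to 221260 (Nat1-/-). Of 15 fibroblast markers 14 (WT), 11 (Nat1+/-) and 8 (Nat1-/-) had a mean RPF of at least 10. The summed RPF level of the 15 was 22799 to 43154 in WT, 56418 to 97013 in Nat1+/- and 19524 to 75056 in Nat1-/-, and most of it in the targeted clones was Fn1 (12116 to 25424, 54006 to 95663 and 18888 to 73948). Without Fn1 the sum of the other 14 was 10682 to 17730, 1350 to 3743 and 636 to 1108. That of 12 markers of differentiated lineages was 14799 to 14898, 1924 to 6140 and 2979 to 3102. Of the fibroblast markers, Lum and Dcn were at 0 in RPF of the 3 Nat1-/- clones. The part of these markers in the results was not tested.

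In Nat1-/- against Nat1+/- cells, more Zfp genes rose than fell at both levels. In footprints 60 members were higher and 18 lower (27.3% called), and 208 did not pass the test (limma over all genes, Benjamini-Hochberg adjusted p under 0.05, as in every call here). Over the 13110 genes tested 36.1% were called, 17.6% higher and 18.6% lower. In total RNA 82 members were higher and 24 lower (37.1%), beside 40.0% of 13813 genes, 19.8% higher and 20.2% lower. The members were therefore called no more often than genes at large, but their calls went up in 76.9% (footprints) and 77.4% (total RNA) of cases, beside 48.6% and 49.5% over all genes. With a minimum of 10 in place of 50, which gave 329 rows, 69.3% and 74.6% of calls went up. Among the 10790 genes that met the same minimum of 50, 19.7% were higher and 15.8% lower in footprints, and 22.9% and 17.1% in total RNA. Of their calls 55.6% and 57.3% went up. Of the members, 21.0% were higher and 6.29% lower in footprints, and 28.7% and 8.39% in total RNA. The share of members higher in footprints thus lay near that of these genes, while the share lower was smaller. The members' median log2 difference was 0.19 in footprints, beside 0.08 over the genes with that minimum and 0.02 over all genes tested. In total RNA it was 0.20, beside 0.07 and 0.01.

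Footprint and total RNA calls of the Zfp genes did not oppose each other in this comparison. Called higher in both were 45 members, called lower in both 15, and called in opposite directions 0. A further 15 were higher in footprints alone and 37 in total RNA alone. Such counts were not made over all genes, so they are not shown to be particular to the Zfp genes. A call in 1 assay only is not a test of a difference between the assays; that test is given under translational efficiency. Leaving out any 1 of the 8 cultures in turn, 39 of the 78 footprint calls and 55 of the 106 total RNA calls passed in every fit. Without B2 the counts were 29 higher and 13 lower in footprints and 54 and 8 in total RNA, and without B4 the total RNA counts were 54 and 15. Without C3 the footprint counts were 56 and 28 (66.7% up), and with equal library sums 48 and 22 (68.6% up). The split over all genes was not counted in these fits. Restricted to the 5 cultures with shallow total RNA libraries, 44 were higher and 16 lower in footprints, and 52 and 15 in total RNA.

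**Figure D1:**
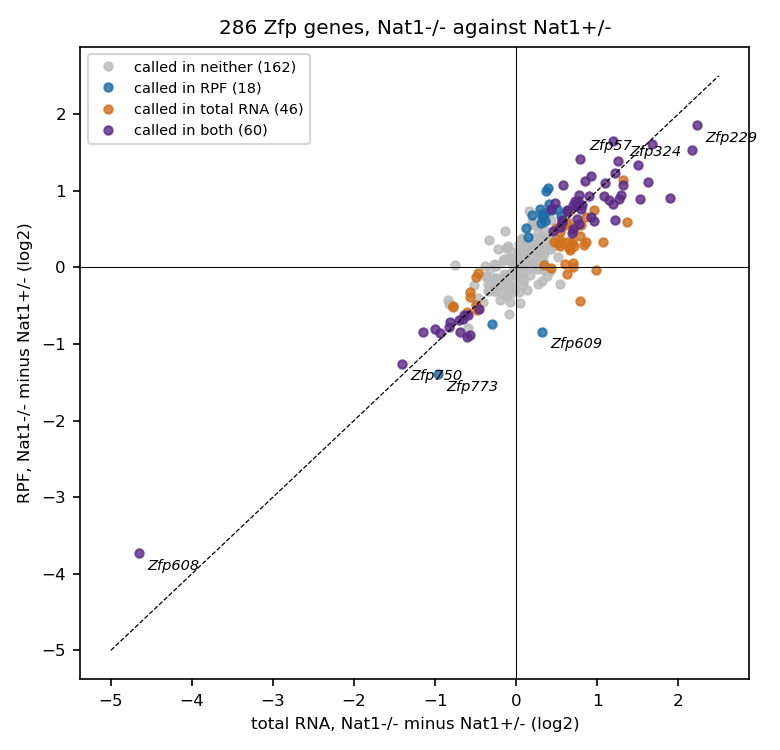
Each point is 1 of 286 Zfp genes, with the log2 difference of Nat1-/- minus Nat1+/- in total RNA on the x axis and in RPF on the y axis; colours give the limma calls, and the dashed line marks equal differences. The 60 genes called in both assays lie along that line, with Zfp608 far below the rest and Zfp609 low in footprints only.

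Of the members known for imprint and retroelement control, a list chosen with earlier results of these data known, 2 of 6 rose in footprints and 3 of 6 in total RNA, beside 17.6% and 19.8% of all genes, and 0 fell in either. Their median log2 difference was 0.32 in footprints and 0.55 in total RNA, beside 0.02 and 0.01 over all genes tested. Zfp57, which binds the methylated copy of imprinted regions and protects it, was among the 3 members with the most reads in each assay. Its footprints were 3304 and 3910 (WT), 2572, 2683 and 4061 (Nat1+/-) and 10910, 10118 and 7258 (Nat1-/-). Its total RNA was 4201 and 4733, then 4213, 2941 and 5997, then 15507, 13957 and 11150. All 3 Nat1-/- clones lay above the other 5 cultures in both assays, and WT and Nat1+/- overlapped. Against Nat1+/- the log2 difference was 1.61 (SE 0.21, adjusted p = 0.000592) in footprints and 1.67 (SE 0.23, adjusted p = 0.000555) in total RNA, and both calls held in the 8 fits that each left out 1 culture.

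Zfp809, which recognises the primer binding site of murine leukaemia proviruses and starts their silencing, had footprints of 359 and 402 (WT), 487, 538 and 560 (Nat1+/-) and 686, 958 and 824 (Nat1-/-). The groups did not overlap in footprints (log2 difference to Nat1+/- 0.63, SE 0.16, adjusted p = 0.0134), although the call was lost without B2 (adjusted p = 0.0686). In total RNA its difference was 0.75 (SE 0.16, adjusted p = 0.00521). Zfp568, a repressor of the placental Igf2 transcript and among the 3 most read members in total RNA, had 6611, 6095 and 6632 normalised total RNA reads in Nat1+/- and 12425, 10409 and 7917 in Nat1-/-. Its total RNA rose by 0.65 (SE 0.16, adjusted p = 0.00998), and its footprint difference of 0.25 (adjusted p = 0.203) did not pass. Zfp445, which maintains imprints beside Zfp57, had differences of 0.06 and 0.15 (adjusted p = 0.794 and 0.413), Zfp932 of 0.40 and 0.44 (0.178 and 0.0679) and Zfp819 of 0.03 and -0.02 (0.930 and 0.946), none of which passed. The list's seventh gene, Zfp708, lay below the minimum.

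**Figure D2:**
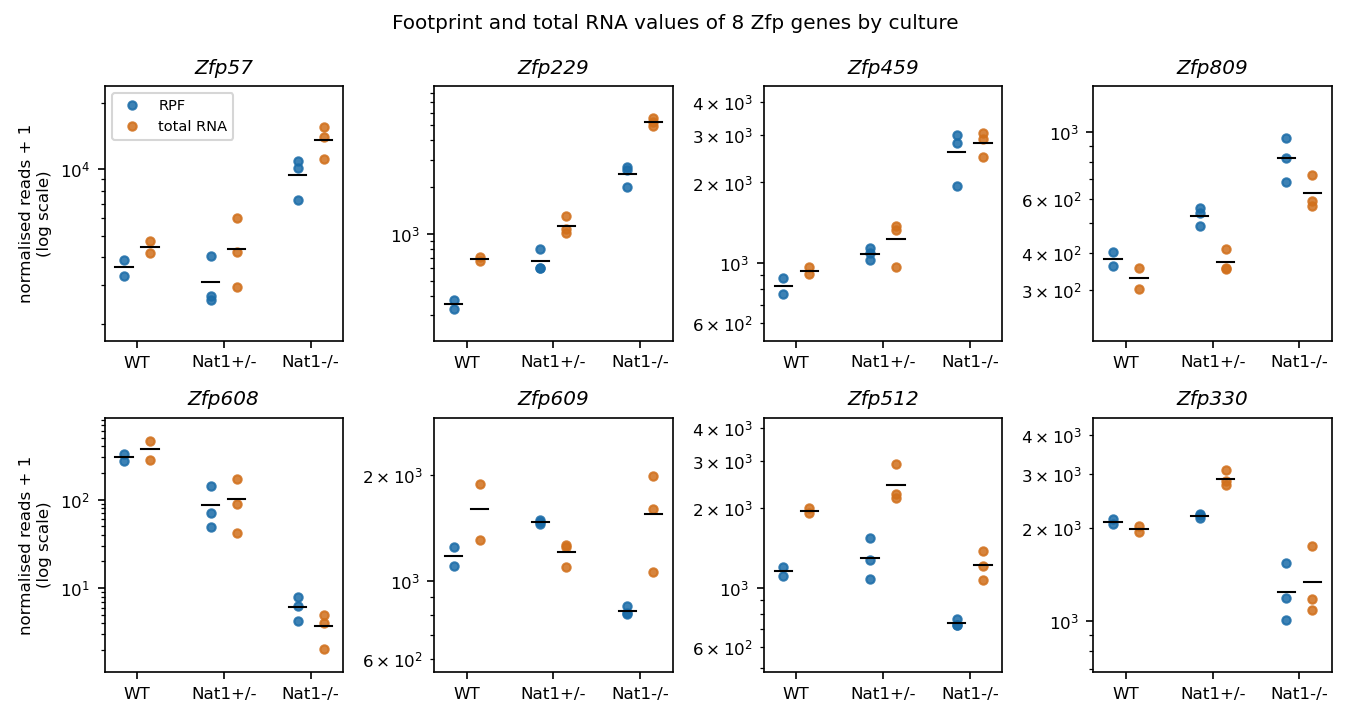
Normalised reads + 1 (log scale) of 8 Zfp genes in each culture, by genotype; blue points are RPF, orange points total RNA, and black bars the mean of the group (WT n = 2, Nat1+/- and Nat1-/- n = 3). In Zfp57, Zfp229, Zfp459 and Zfp809 the Nat1-/- cultures lie above all others in both assays, and in Zfp608 and Zfp330 below all others, while Zfp609 is low in footprints only.

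Among all members the highest footprint difference belonged to Zfp229, a KRAB zinc finger gene in the array on chromosome 17. Its footprints were 329 and 373 (WT), 797, 601 and 604 (Nat1+/-) and 2010, 2576 and 2670 (Nat1-/-), and its total RNA 711 and 671, then 1301, 1006 and 1068, then 4961, 5528 and 5267. The 3 genotypes formed separate steps in both assays. The log2 difference of Nat1-/- to Nat1+/- was 1.86 (SE 0.17, adjusted p = 9.18e-05) in footprints and 2.23 (SE 0.13, adjusted p = 1.48e-05) in total RNA, and both calls held without each culture in turn. Nat1+/- also exceeded WT, by 0.92 (SE 0.19, adjusted p = 0.0238) and 0.69 (SE 0.15, adjusted p = 0.0221). The first of these calls was lost without A7, WTex1 or WTex2 (adjusted p up to 0.257) and the second without A7, C1, WTex1 or WTex2 (up to 0.201).

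Zfp57 and Zfp229 are shown by their promoters because both rose by over 1.5 on the log2 scale in each assay, with calls held in every fit. Each stretch is the 250 bases before the first start site listed for the gene, 5′ to 3′ along the gene, from RefSeq (GRCm38.p6), with the letters TGCCGC (either strand), to which Zfp57 binds when they are methylated, in capitals.
Zfp57 (chr17:37003416-37003665, + strand): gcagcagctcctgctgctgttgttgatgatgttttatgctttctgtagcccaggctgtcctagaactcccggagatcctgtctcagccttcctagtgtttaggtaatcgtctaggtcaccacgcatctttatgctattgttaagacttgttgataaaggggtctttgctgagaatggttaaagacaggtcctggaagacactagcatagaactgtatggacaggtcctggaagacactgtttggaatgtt
Zfp229 (chr17:21733474-21733723, + strand): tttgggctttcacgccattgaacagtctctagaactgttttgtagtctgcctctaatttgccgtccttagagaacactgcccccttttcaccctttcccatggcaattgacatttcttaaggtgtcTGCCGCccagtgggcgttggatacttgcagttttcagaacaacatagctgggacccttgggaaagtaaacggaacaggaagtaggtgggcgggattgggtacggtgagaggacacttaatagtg
The Zfp57 stretch held this motif 0 times and the Zfp229 stretch 1 time; no binding was measured here.

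Other members rose clearly in both assays. Zfp459, of the chromosome 13 array, had footprints of 1134, 1027 and 1094 in Nat1+/- and 1948, 2807 and 3005 in Nat1-/- (log2 difference 1.23, SE 0.17, adjusted p = 0.000768), and 768 and 878 in WT. Zfp707 had 86.7, 85.1 and 129 against 351, 316 and 269 (1.65, SE 0.22, adjusted p = 0.000619), with 137 and 121 in WT. The Nat1-/- clones were the 3 highest of 8 cultures for both genes. Zfp52 (1.42, adjusted p = 0.00129), Zfp27 (1.39, adjusted p = 0.00510) and Zfp428 (1.34, adjusted p = 0.00158) followed in footprints, and in these 3 the Nat1+/- clones lay below WT. For Zfp428 the footprints were 961 and 867 (WT), 586, 485 and 445 (Nat1+/-) and 1632, 1397 and 904 (Nat1-/-), so that the C3 value lay between those of the WT cultures. The footprint calls of these 5 genes held without each culture in turn.

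In total RNA, Zfp324 was next after Zfp229. Its total RNA was 162 and 165 (WT), 63.7, 64.8 and 94.2 (Nat1+/-) and 390, 400 and 231 (Nat1-/-) (2.16, SE 0.26, adjusted p = 0.000304). Its footprints were few, 31.4, 16.2 and 38.8 against 122, 96.8 and 43.3 (1.53, SE 0.44, adjusted p = 0.0235), and that call was lost without B4, B12 or B2 (adjusted p up to 0.0890). Zfp628 had total RNA of 37.6, 41.7 and 58.5 in Nat1+/- and 371, 185 and 71.6 in Nat1-/- (1.89, SE 0.49, adjusted p = 0.0127). The Nat1-/- values of Zfp628 spread over a wide range and C3 lay near Nat1+/-. Without C3 its difference was 2.51. Zfp592 (1.53, adjusted p = 0.000457) also rose in total RNA.

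Zfp608 had the lowest difference among the 286 members in each assay. It met the minimum of 50 through its WT and Nat1+/- levels, and Zfp genes that fell from a lower start, such as Zfp711, lay below that minimum. Its footprints were 331 and 274 (WT), 47.7, 142 and 70.3 (Nat1+/-) and 3.24, 5.33 and 6.84 (Nat1-/-), and its total RNA 461 and 282, then 40.8, 171 and 88.5, then 1.04, 4.0 and 2.98. The 3 genotypes did not overlap in either assay. The fitted log2 difference to Nat1+/- was -3.73 (SE 0.42, adjusted p = 0.000275) in footprints and -4.65 (SE 0.53, adjusted p = 0.000222) in total RNA, on the log2(value + 1) scale. The Nat1-/- libraries held only 3 to 6 footprint reads and 2 to 3 total RNA reads of the gene each, 15 and 7 in all. Summed over libraries, the Nat1-/- level was 5.84% of that in Nat1+/- in footprints (exact 95% interval 3.22 to 9.82) and 2.03% in total RNA (0.808 to 4.27), counting error only.

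Its relative Zfp609, which works with the cohesin loader Nipbl and the Integrator complex, had footprints of 1448, 1471 and 1495 in Nat1+/- and 811, 803 and 848 in Nat1-/-, with 1102 and 1250 in WT. The 3 groups were separate and tight (-0.84, SE 0.12, adjusted p = 0.000793). Its total RNA was 1886 and 1310 (WT), 1097, 1267 and 1252 (Nat1+/-) and 1992, 1597 and 1057 (Nat1-/-) (0.32, adjusted p = 0.284), with overlapping groups. Zfp512 had footprints of 1550, 1077 and 1273 in Nat1+/- against 723, 763 and 728 in Nat1-/- (-0.80, SE 0.15, adjusted p = 0.00359), and total RNA of 2916, 2251 and 2182 against 1068, 1212 and 1376 (-1.0, SE 0.15, adjusted p = 0.000855). Zfp773 had a footprint difference of -1.40 (SE 0.39, adjusted p = 0.0205), with 22.7, 27.5 and 62.7 in Nat1-/- against 101, 113 and 66.1. Its call was lost without A7, B4, B12 or B2 (adjusted p up to 0.0787).

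Chromosome 8 held 7 of the 18 members lower in footprints and 7 of the 24 lower in total RNA, the same 7 genes in both: Zfp1, Zfp330, Zfp821, Zfp866, Zfp869, Zfp90 and Zfp930. These are 7 of its 19 members, and of all genes tested on the chromosome 40.5% were lower in footprints (4.85% higher) and 41.8% in total RNA (5.28% higher). The share of Zfp genes called lower there lay near that of the whole chromosome. Zfp330, a nucleolar protein, had footprints of 2217, 2152 and 2198 in Nat1+/- and 1006, 1185 and 1536 in Nat1-/- (-0.84, SE 0.16, adjusted p = 0.00347), and its total RNA fell by 1.15 (SE 0.17, adjusted p = 0.000864). The other 6 differed by -0.62 to -0.91 in footprints and by -0.57 to -0.95 in total RNA. Of these 14 calls 2 depended on single cultures, both in total RNA: Zfp821 was lost without A7 or B2 (adjusted p up to 0.0650), and Zfp869 without any of A7, C1, B2, C3, WTex1 and WTex2 (up to 0.145). On the same chromosome Zfp423, an early B cell factor partner in adipocyte and cerebellar development, was higher in both assays.

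The median gene of chromosome 8 lay lower in the Nat1-/- clones. The median difference of Nat1-/- to Nat1+/- was -0.42 in footprints (701 genes tested) and -0.41 in total RNA (720 genes). Relative to WT, the median of the chromosome 8 genes with a mean of at least 50 was -0.39 (B12), -0.43 (B2) and -0.40 (C3) in footprints, beside 0.01 (A7), -0.08 (B4) and 0.00 (C1). The 19 members stood at -0.35, -0.33 and -0.19, beside 0.08, -0.04 and 0.05. In total RNA these genes stood at -0.43, -0.42 and -0.42, beside -0.04, -0.09 and -0.04. There the 19 members stood at -0.26, -0.60 and -0.63, beside -0.15, -0.41 and -0.29, so that their Nat1-/- and Nat1+/- medians overlapped, with the Nat1+/- clones also below WT. Genes of chromosome 11 were lower than WT in the 6 targeted clones (-0.18 to -0.47 in footprints) and those of chromosome 1 higher (0.17 to 0.58). The part of these shifts in the members' calls was not tested. Without the chromosome 8 members, a summary chosen after seeing the data, 59 of 267 members were higher and 11 lower in footprints. In total RNA 80 were higher and 17 lower. Genes of chromosome 8 stayed in the all-gene shares given above. No share over all genes of the other chromosomes was counted, so these counts have no like background.

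**Figure D3:**
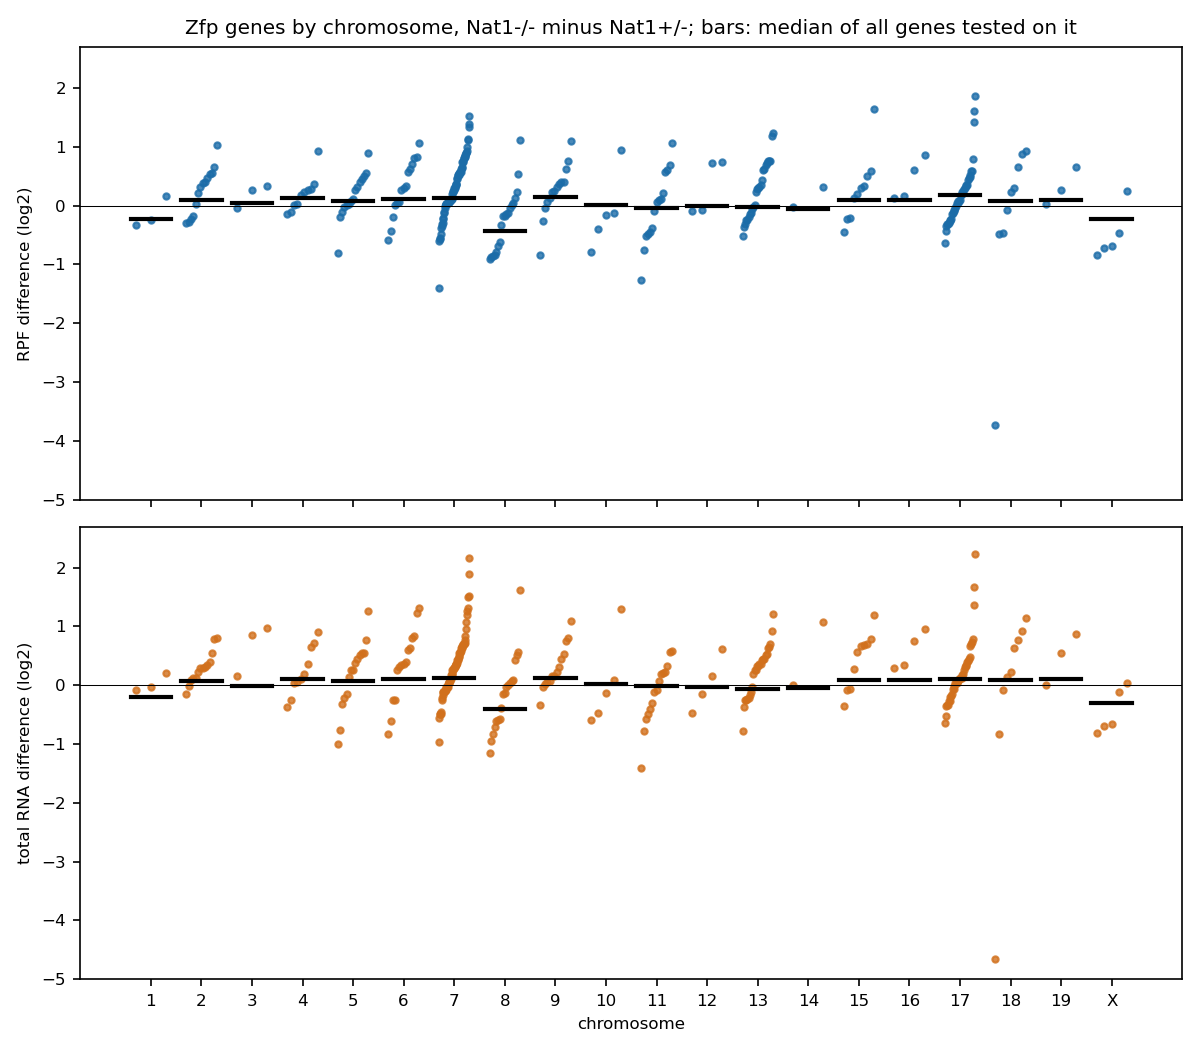
Log2 difference of Nat1-/- minus Nat1+/- for each Zfp gene, by chromosome, in RPF (top) and total RNA (bottom); black bars are the median of all genes tested on that chromosome. The bar of chromosome 8 lies at -0.42 and -0.41, with 7 of its 19 Zfp genes called lower in both assays, beside 40.5% and 41.8% of its genes called lower.

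On the X chromosome 3 of 5 members were lower in each assay, beside 29.7% of its genes in footprints and 33.0% in total RNA. The median over all its genes tested was -0.23 and -0.30. Relative to WT, footprint medians of X genes with a mean of at least 50 were -0.06 (B12), -0.01 (B2) and 0.04 (C3). In Nat1+/- they were 0.03 (A7), 0.03 (B4) and 0.09 (C1). Total RNA gave -0.06, -0.02 and 0.02, beside 0.06, 0.02 and 0.09. Zfp280c had footprints of 1013, 967 and 952 in Nat1+/- and 563, 479 and 597 in Nat1-/- (-0.84, SE 0.13, adjusted p = 0.00145), with 1042 and 1100 in WT. Chromosome 7 held the most members, 71, of which 19 were higher and 2 lower in footprints and 26 and 5 in total RNA, beside 22.5% of its genes higher and 14.6% lower in footprints and 24.9% and 14.4% in total RNA. Chromosome 17 held 39, with 5 higher and 1 lower in footprints, beside 22.0% and 12.8% of its genes, and chromosome 13 held 26, with 7 and 0, beside 17.0% and 19.5%.

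Neighbouring Zfp genes did not all move as blocks. Runs were taken, by a rule set after the data were seen, as at least 4 members with at most 5 other protein-coding genes between neighbours, which gave 14 runs with 111 members. Of all genes tested on chromosome 17, 22.0% were higher and 12.8% lower in footprints. In the chromosome 17 run from Zfp160 to Zfp13, 4 of 18 members were higher in footprints and 0 lower: Zfp229, Zfp52, Zfp160 and Zfp760. Their neighbours in the run differed by -0.43 to 0.59. On chromosome 7, 22.5% of all genes tested were higher in footprints and 14.6% lower. The chromosome 7 run from Zfp60 to Zfp850 had 4 of 6 members higher in footprints, Zfp626, Zfp607, Zfp780b and Zfp850. The run from Zfp329 to Zfp446 had 3 of 5 higher, Zfp329, Zfp324 and Zfp446. Of these footprint calls, that of Zfp329 was kept only without A7 (adjusted p up to 0.123). Those of Zfp324, Zfp760, Zfp607 and Zfp850 were each lost in at least 1 fit that left out a culture. The chromosome 8 run from Zfp930 to Zfp866 had 3 of 4 lower in both assays, beside 40.5% and 41.8% of that chromosome's genes. The 13 members of the chromosome 17 run from Zfp871 to Zfp414 had 0 higher and 1 lower in footprints. Differences within a run ranged from -0.51 to 1.23 in the 15 members of the chromosome 13 array that begins with Zfp640.

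**Figure D4:**
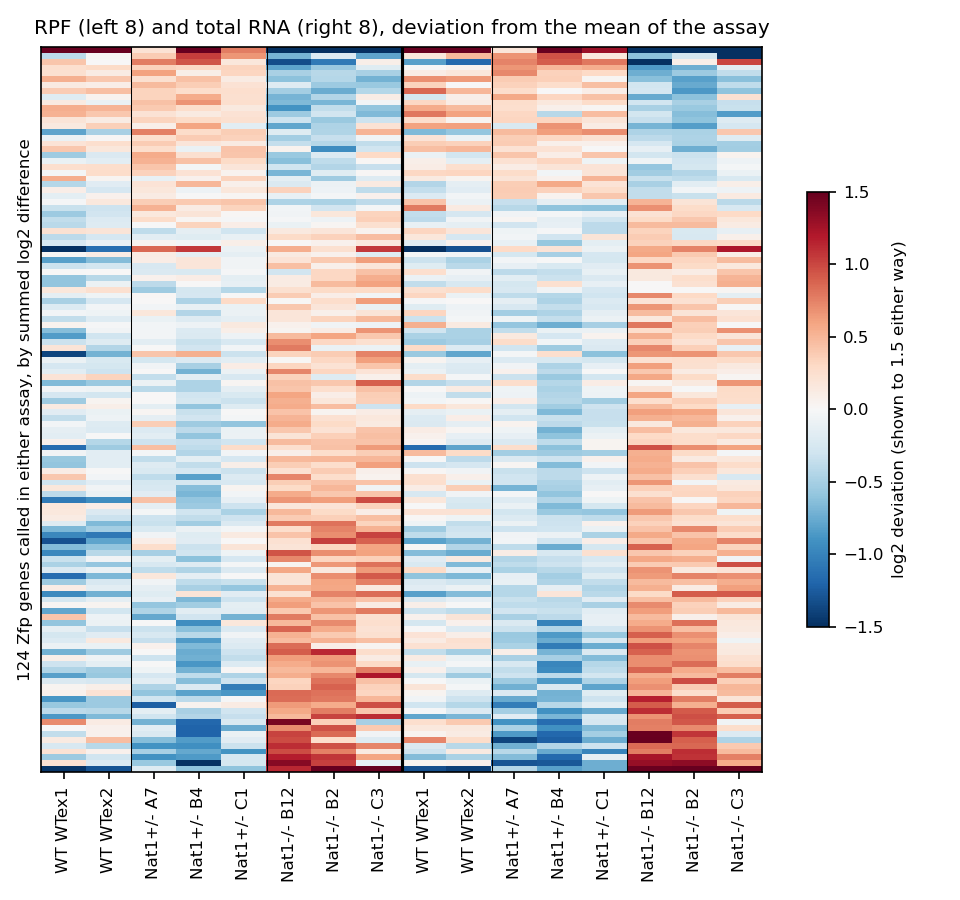
Log2 deviation of the 124 Zfp genes called in either assay (rows, ordered by their summed difference) from their mean over the assay, in each culture (columns; RPF left, total RNA right; red above, blue below, colours end at 1.5). The 3 Nat1-/- columns of each assay stand apart from the Nat1+/- columns, a pattern that the choice of called genes fixes, and B4 is the bluest of the Nat1+/- columns for the genes that rose.

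Of 10 members tied to the stem cell state, 1 rose and 0 fell in footprints, beside 36.1% of all genes called in either direction. In total RNA 3 rose and 1 fell, the same share as the 40.0% of all genes called. Their medians were 0.07 and 0.12, beside 0.02 and 0.01 over all genes tested. Zfp296, a factor that aids reprogramming to the stem cell state, had footprints of 887 and 1072 (WT), 1005, 730 and 934 (Nat1+/-) and 1833, 1400 and 1435 (Nat1-/-) (0.81, SE 0.17, adjusted p = 0.00592). Its Nat1-/- values lay above the other 5, and the call held without each culture in turn. Zfp217 (0.34, adjusted p = 0.0301) and Zfp706 (0.67, adjusted p = 0.0287) rose in total RNA. Zfp143, an activator that binds promoters of housekeeping genes and Nanog, had total RNA of 761 and 941 (WT), 1331, 1537 and 1189 (Nat1+/-) and 735, 929 and 1100 (Nat1-/-) (-0.56, SE 0.18, adjusted p = 0.0291). Of these total RNA calls, that of Zfp296 was lost without A7 or B2 (adjusted p up to 0.0733), Zfp217 without A7, B4, C1 or B2 (up to 0.104), and Zfp706 (up to 0.100) and Zfp143 (up to 0.103) without A7, B4, B12 or B2. Zfp281, Zfp462, Zfp207, Zfp131, Zfp322a and Zfp266 did not pass in either assay, with differences of -0.20 to 0.28 in footprints.

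A list of 14 Zfp genes with roles in development held 6 members. Of its 10 genes tested in footprints 2 rose and 3 fell (median -0.54), and of the 12 tested in total RNA 2 rose and 4 fell (median -0.37), beside 17.6% higher and 18.6% lower, and 19.8% and 20.2%, over all genes. The 6 members gave 2 higher and 1 lower in each assay, and the other genes that fell, Zfp521 and Zfp711 in both assays and Zfp536 in total RNA, lay below the minimum of 50. Zfp423 had total RNA of 385, 307 and 485 in Nat1+/- and 1932, 1460 and 601 in Nat1-/- (1.63, SE 0.36, adjusted p = 0.00596), with 718 and 757 in WT, so that C3 lay below WT. Its footprint call (1.12, adjusted p = 0.0283) was lost without B4, B12 or B2 (up to 0.103). Zfp516, a cofactor of brown fat genes, had total RNA of 871 and 973 (WT), 1136, 1730 and 1157 (Nat1+/-) and 1866, 2865 and 2906 (Nat1-/-), without overlap between genotypes. The difference of Nat1-/- to Nat1+/- was 0.92 (SE 0.21, adjusted p = 0.00704). Its footprint call (0.66, adjusted p = 0.0239) was lost without A7, C1, B2 or C3 (up to 0.0957). Zfp750, a driver of epidermal differentiation, had footprints of 138, 218 and 167 in Nat1+/- and 64.8, 91.5 and 60.4 in Nat1-/- (-1.26, SE 0.26, adjusted p = 0.00533), and 80.0 and 106 in WT. In total RNA it differed by -1.41 (adjusted p = 0.0142; 0.0543 without B4). Zfp335, Zfp365 and Zfp219 did not pass.

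Of 10 members that act on ribosomes or RNA, 2 rose in footprints, 1 rose in total RNA and 0 fell, beside 17.6% and 19.8% of all genes higher and 18.6% and 20.2% lower. Zfp830, linked to splicing and DNA repair, had footprints of 869 and 916 (WT), 532, 644 and 573 (Nat1+/-) and 911, 948 and 948 (Nat1-/-) (0.69, SE 0.13, adjusted p = 0.00353), so that Nat1-/- lay with WT. Zfp638 rose in footprints by 0.57 (adjusted p = 0.0343, up to 0.118 without A7, C1, B2 or C3). Zfp598, the ligase that marks collided ribosomes, rose in total RNA by 0.66 (adjusted p = 0.0276, up to 0.0803 without A7, B4, C1, B12 or B2). Zfp622 and Zfp593, which act in maturation of the large ribosomal subunit, differed by 0.20 and -0.11 in footprints (adjusted p = 0.322 and 0.748). Zfp106, among the most read members, differed by -0.18 (adjusted p = 0.252).

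Translational efficiency, the change of footprints beyond that of RNA, showed 0 called members in any of the 3 comparisons (limma, interaction of assay and genotype). At an unadjusted p under 0.05 there were 18 members for Nat1-/- against Nat1+/-, 6 for Nat1-/- against WT and 18 for Nat1+/- against WT. At the adjusted threshold 0.580%, 0.00773% and 0.00% of the 12933 genes were called. The members' median differences were -0.01, 0.14 and 0.17, beside 0.01, 0.03 and 0.02 over all genes. The footprint and RNA libraries of a culture deviated together, and the fit with culture as a pairing block called 13 members for Nat1-/- against Nat1+/-, 3 higher and 10 lower, and 0 for the comparisons with WT. That fit called 1275 genes in all, 3.45% higher and 6.41% lower.

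Higher in the paired fit were Zfp830 (0.49, SE 0.08, adjusted p = 0.0204), Zfp780b (0.64, SE 0.14, adjusted p = 0.0366) and Zfp383 (0.46, SE 0.11, adjusted p = 0.0465). Lower were Zfp609 (-1.16, SE 0.27, adjusted p = 0.0430), Zfp385a (-1.23, SE 0.27, adjusted p = 0.0367), Zfp687 (-1.01, SE 0.17, adjusted p = 0.0229), Zfp213, Zfp865, Zfp180, Zfp592, Zfp777, Zfp36 and Zfp568. Zfp687 shows the pattern: its footprints were 621, 609 and 705 in Nat1+/- and 670, 616 and 605 in Nat1-/-, while its total RNA was 478, 430 and 505 against 1235, 913 and 711. In Zfp609, by contrast, the footprints moved and the RNA did not pass. The total RNA of Zfp687 in WT was 1031 and 780, within the range of Nat1-/-. Without the pairing block the adjusted p was 0.0835 for Zfp687, 0.0712 for Zfp609 and 0.0988 for Zfp385a.

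Against WT, the Nat1-/- clones had 69 members higher and 17 lower in footprints (all genes 16.5% and 18.3%) and 52 and 18 in total RNA (16.2% and 18.9%). Of the genes with the minimum of 50, 18.8% were higher and 14.9% lower in footprints, beside 24.1% and 5.94% of members. In total RNA these shares were 18.8% and 15.3%, beside 18.2% and 6.29% of members. The share of members higher in total RNA thus lay near that of these genes, while the share lower was smaller. These comparisons share the Nat1-/- libraries with the one above. In footprints Zfp640 was low in WT only, with 7.77 and 22.3 (WT), 92.2, 105 and 47.2 (Nat1+/-) and 73.4, 59.5 and 106 (Nat1-/-). It met the minimum of 50 there through the targeted clones. In total RNA it had 49.7 and 62.3, then 191, 179 and 146, then 231, 260 and 362 (Nat1-/- to WT 2.31, SE 0.26, adjusted p = 0.000169). There the 3 genotypes did not overlap, and Nat1-/- was also called higher than Nat1+/- (0.71). That call was lost without A7, B4, C1, B2 or C3. Zfp704 had total RNA of 1303 and 1683 (WT), 3488, 1894 and 2990 (Nat1+/-) and 5641, 4733 and 4412 (Nat1-/-) (1.73, SE 0.24, adjusted p = 0.000538). Zfp358 was high in WT only, with footprints of 186 and 188, then 66.1, 62.8 and 90.3, then 81.0, 91.5 and 83.2 (Nat1-/- to WT -1.13, SE 0.24, adjusted p = 0.00598; up to 0.0584 without WTex1 or WTex2).

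The WT comparisons rested on 2 cultures. Of the 86 footprint calls 22 and of the 70 total RNA calls 21 passed in every fit that left out 1 culture, and without WTex1 the counts were 20 higher and 5 lower in footprints and 22 and 7 in total RNA. With library sums made equal, the total RNA calls were 35 higher and 27 lower in place of 52 and 18. Nat1+/- against WT gave 12 members higher and 5 lower in footprints (all genes 5.35% and 5.13%) and 7 and 6 in total RNA (4.60% and 5.41%). In that comparison 0 of the 17 and 0 of the 13 calls passed in every such fit, and without either WT culture 0 members were called in either assay. The split in total RNA was 4 higher and 17 lower with equal library sums, 4 and 12 with TMM factors and 7 and 9 with a pseudocount of 5, and in footprints 7 and 5 with equal sums. Zfp229, Zfp57, Zfp459 and Zfp608 passed against WT in both assays in each of the 8 fits.

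The Zfp genes had a lower ratio of footprint to total RNA reads than genes with the same minimum in each of the 8 cultures. Their median log2 ratio of RPF to total RNA lay between -0.98 in WTex1 and -0.68 in C3, while that of the 10790 genes lay between -0.36 and -0.31. Between 74.5% and 84.6% of members were below the gene median. The ratio compares normalised libraries, so only the distance between the groups of genes within a culture can be compared. It takes no account of each transcript's coding share or of reads that match several copies. The part of either in that distance was not tested, so the distance is not a measure of translation. The lowest mean ratios belonged to Zfp329, at -3.61, Zfp704, at -3.45, and Zfp652, at -3.02. For Zfp329 WT footprints were 38.8 and 42.6 beside total RNA of 1142 and 868.

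**Figure D5:**
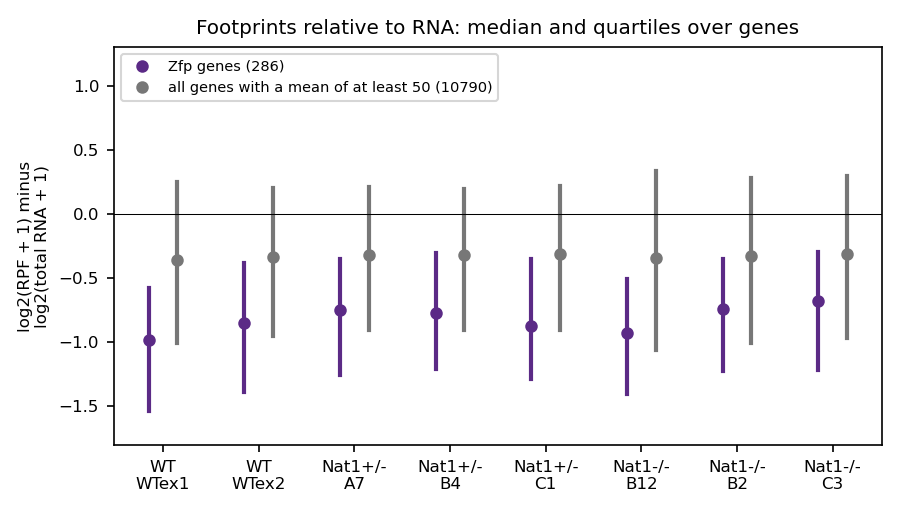
Log2 ratio of RPF to total RNA normalised reads (+ 1) in each culture; points are medians and bars the quartiles over genes, for the 286 Zfp genes and for the 10790 genes with the same minimum. The Zfp median lies between -0.98 and -0.68, below the gene median in every culture.

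The promoters of the members were searched for the letters of sites of Zfp57 and Zfp143, each itself a member. RefSeq promoters (GRCm38.p6, 250 bases before to 50 after the first listed start) were matched for 238 of 286 members, and 2 motifs were searched on both strands: TGCCGC, the Zfp57 letters, and ACTACA, any 3 bases and CCC, the core of the site of Zfp143. The second was in 46 of the 238 member promoters (19.3%), in 2.28% of all 27025 promoters and in 5.31% of 8131 promoters of other genes with a mean of at least 50 in both assays. Among other zinc finger families with that minimum it was in 2 of 10 Zscan promoters and in 0 of 5 Zkscan, 0 of 33 Zbtb and 0 of 11 Klf promoters. Of its 48 matches 39 lay within 100 bases of the start site, with a median position of 47 bases before it. Among members called higher in either assay 12.7% held it, among those called lower 28.6% (6 of 21) and among those called in neither 21.7%. TGCCGC was in 16.8% of member promoters, in 11.6% of all and in 20.9% of the expressed others, whose GC content was higher (median 61.7%, beside 55.0% in members). Members copied from each other share promoter sequence, so these shares do not count independent sites.

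The windows of the 7 members chosen for their values whose promoters held the second motif are shown to place the match in its sequence; since they were picked for the motif, its presence in each is no finding. Each is written 5′ to 3′ in the motif's own direction with the strand shown, 30 bases in all, the motif in capitals (RefSeq, GRCm38.p6).
Zfp180 (chr7:24081865-24081894, - strand): ctcaatggaACTACAATTCCCagaactctc
Zfp358 (chr8:3493104-3493133, + strand): ctcgagcgaACTACAAGTCCCagcagctcc
Zfp605 (chr5:110110060-110110089, - strand): cgatgtagaACTACATTTCCCagagatcca
Zfp712 (chr13:67061206-67061235, + strand): gcggacgagACTACATTTCCCacaattctc
Zfp773 (chr7:7136797-7136826, - strand): gctgtctgaACTACATTACCCagaagtgac
Zfp780b (chr7:27979198-27979227, - strand): gccgcaaggACTACATTTCCCagggtccac
Zfp874a (chr13:67451637-67451666, + strand): gtgctgcagACTACATTTCCCacaagtctg
Zfp180, Zfp605, Zfp712 and Zfp874a hold it opposite to the gene's direction, and Zfp358, Zfp773 and Zfp780b along it. In Nat1-/- against Nat1+/- total RNA, Zfp180 (0.70, adjusted p = 0.00562), Zfp605 (0.77, adjusted p = 0.00846) and Zfp874a (0.65, adjusted p = 0.0205) were higher and Zfp712 (-0.78, adjusted p = 0.0451) lower, so that members with the motif moved in both directions. The call of Zfp712 was kept in the fit without C3 only (adjusted p up to 0.159), and that of Zfp874a was lost without B4 or B2 (up to 0.0668). A match is a run of letters, and no binding was measured.

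Of 20 genes for the co-repressors of KRAB proteins, 2 rose and 0 fell in footprints (Hdac1 and Smarcad1), beside 36.1% of all genes called in either direction, and 3 rose and 1 fell in total RNA, beside 40.0%. In total RNA Trim28 rose by 0.62 (SE 0.18, adjusted p = 0.0203) and Mphosph8 of the HUSH complex fell by 0.69. The medians of the 20 were 0.08 and 0.00. Against WT 4 rose and 0 fell in footprints, beside 16.5% higher and 18.3% lower over all genes. In total RNA 5 rose and 2 fell in that comparison, beside 16.2% and 18.9%. Trim28 footprints differed by 0.45 (adjusted p = 0.0911). In other zinc finger families with the same minimum, 2 of 10 Zscan genes rose and 0 fell in footprints (1 and 1 in total RNA), and of 9 Zkscan genes 1 rose and 0 fell (1 and 3). Of 37 Zbtb genes 13 rose and 1 fell (16 and 1), and of 14 Klf genes 3 rose and 4 fell (7 and 4). Over all genes with that minimum 19.7% were higher and 15.8% lower in footprints, and 22.9% and 17.1% in total RNA. No test compared the families with the Zfp genes.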

How the data were processed

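RPF and total RNA came from the same 8 cultures; the labels' protocols name a TruSeq Ribo Profile kit. What the authors deposited is a signal, each gene's reads over the library's DESeq2 size factor, per the submitters' processing notes. Tools in those notes are bcl2fastq (2.17), cutadapt (1.9.1), Bowtie2 (2.2.8), TopHat2 (2.1.0) and HTSeq (0.6.1), and the builds mm10 and GRCm38.p4. Whole reads were recovered for 100% of values within 0.001. Factors set within each assay hide a change shared by most genes.

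For each assay limma (version 3.58.1, R version 4.3.3) with a trend in eBayes took log2(value + 1) of all 8 libraries and 3 genotype means, for genes with a mean of at least 10. Fold changes are on that scale, which understates changes of low genes. Translational efficiency was the interaction of assay and genotype over 16 libraries. Calls are two-sided, with Benjamini-Hochberg adjusted p under 0.05 over all genes of a comparison. RPF and total RNA of a culture deviated together (r = 0.384 to 0.821, 8 of 8 matched best), so the culture block is a paired fit. The fits were also run on simulated counts in which each gene and library varied independently, with an outcome not given here. Such counts hold no chromosome-wide shift and no pairing of RPF with total RNA. Alternatives were other pseudocounts, filters and scalings, count models on the recovered reads (edgeR 4.0.16, DESeq2 1.42.0), blocks, and leaving out each culture.

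The members, the 4 role lists and the naming rule were chosen with earlier results of these data known. Among called members without overlap between the groups, the rule names per assay the 8 highest and 8 lowest for Nat1-/- against Nat1+/- and 4 of each against WT; it adds the 3 most read, the list members, those nearest to a translational efficiency call and the rows at the minimum. It gave 75 members, of which the text describes a part. Zfp1, Zfp160, Zfp383, Zfp446, Zfp607, Zfp626, Zfp652, Zfp760, Zfp777 and Zfp850 were named after their values were seen, as were the Zfp genes below the minimum and the other non-members in the closing section. Both promoter motifs, the promoters shown, the runs, the chromosome summaries, the comparison with genes of at least 50 and the interval for Zfp608 were chosen after the files were opened. A RefSeq gene table of GRCm38.p6, not the files' build, gave chromosome names and gene order only. Classes by KRAB domain or finger number were not analysed here.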

Additional observations from a re-analysis of the deposited data

How the results depend on the processing

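Of 266 planned refits of the 9 counts of called Zfp genes and the 6 medians, 225 stayed within 1.5 times the count or within the spread between cultures and 41 moved. The total RNA median of Nat1+/- against WT, -0.04, changed sign without WTex1 (0.000169) and without B4 (0.02), within that spread, and its calls went from 7 higher and 6 lower to 4 and 17 with equal library sums, 4 and 12 with TMM factors and 7 and 9 with a pseudocount of 5. Leaving out 1 culture, the called members ranged from 42 to 84 in footprints and from 62 to 118 in total RNA for Nat1-/- against Nat1+/-, from 25 to 91 and from 29 to 78 for Nat1-/- against WT, and from 0 to 40 and from 0 to 43 for Nat1+/- against WT; translational efficiency of Nat1-/- against Nat1+/- had 0 to 4, the 4 without C3. The total RNA median of Nat1-/- against WT ranged from 0.12 to 0.25. A fit with 1 WT culture assumes that it varies like the other groups. In the 5 shallow cultures 67 members were called in total RNA in place of 106. With no filter on low values, Nat1+/- against WT had 9 footprint and 6 total RNA calls in place of 17 and 13, and DESeq2 had 39 and 37. Equal library sums gave 21 in that total RNA comparison and 1 translational efficiency call, as did TMM factors. Equal sums moved the footprint median to 0.10 (Nat1-/- against Nat1+/-) and 0.19 (against WT), and the total RNA median to 0.0535 (Nat1-/- against WT) and -0.13 (Nat1+/- against WT), with the all-gene medians at -0.06, -0.08, -0.10 and -0.11; TMM moved the total RNA median of Nat1-/- against Nat1+/- to 0.28, with all genes at 0.08. The culture block raised translational efficiency calls to 13. Replicate numbers across genotypes share only a number; as a replicate block they left 0 calls in both assays of Nat1+/- against WT, 71 and 97 for Nat1-/- against Nat1+/- and 65 and 58 for Nat1-/- against WT. The causes of these moves were not tested. Among refits of single named genes 2479 kept their side of the threshold, 186 lost and 35 gained a call; 0 of the called changed sign, and 64 of those not called did, without a call. Depth limits Zfp608 in Nat1-/-, where each total RNA library held 2 to 3 reads.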

Other observations

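Some Zfp genes below the minimum of 50 moved further than most members. Zfp521, a brake on B cell and adipocyte differentiation, had mean footprints of 56.2 in WT, 36.5 in Nat1+/- and 10.6 in Nat1-/-, and mean total RNA of 159, 104 and 22.3, and fell against Nat1+/- by 1.76 (adjusted p = 0.00971) and 2.24 (adjusted p = 0.00128) on the log2 scale. Zfp711, an X-linked activator whose loss causes intellectual disability, fell by 2.77 (adjusted p = 0.00835) and 2.79 (adjusted p = 0.00267), with mean total RNA of 104, 63.9 and 8.44. Both met the minimum in total RNA and fell short of it in footprints, where their means over the 8 libraries were 31.7 and 30.5. With a minimum of 10 in place of 50, footprint calls were 61 higher and 27 lower and total RNA calls 88 and 30 for Nat1-/- against Nat1+/-.

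Zfp42 (Rex1), left out by name, had mean footprints of 34436 in WT, 30508 in Nat1+/- and 49559 in Nat1-/- and rose against Nat1+/- by 0.70 (adjusted p = 0.0223) and in total RNA by 0.51 (adjusted p = 0.0375). The RNA decay factor genes Zfp36l1 and Zfp36l2, whose names do not follow the rule, had total RNA higher in Nat1-/- by 1.26 (adjusted p = 0.00796) and 1.59 (adjusted p = 0.00240), while their footprints differed by 0.12 and 0.23 (adjusted p = 0.672 and 0.427).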
